A study of Mus musculus with 2 samples.

Results

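The cells described here are the glucagon-rich alpha cells of control mouse islets. Of 2496 control cells that passed the cell filter, 554 were alpha cells, a share of 22.2% (exact 95% binomial interval 20.6 to 23.9%, counting error only), and the whole series held 5447 cells under the same filter. Unique molecular identifiers (UMIs) each stand for 1 captured RNA molecule. A cell needed at least 10% of the UMIs at the 99th percentile (68256 UMIs) of the 3000 control barcodes with the most UMIs, at least 500 genes and at most 15% mitochondrial UMIs. It counted as alpha when Gcg gave at least 10% of its UMIs, Ins1 plus Ins2 less than 5% and Sst less than 5%, and 7 cell cycle genes together gave fewer than 10 UMIs. Gcg at 10% alone selected 617 control cells. The insulin limit removed 9 of them, the Sst limit 7 more and the cell cycle limit 47 more.

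Both libraries came from 9-day-old mice, and each pooled 6 animals. The Isl1CKO animals carried Neurod1 Cre and 2 floxed copies of Isl1, a LIM homeodomain transcription factor gene of endocrine cells. The control animals carried the same Cre and 1 floxed copy, so the control alpha cells are themselves heterozygous in any cell where Cre acted. Neurod1 Cre acts in endocrine lineage cells, and islet cells of both genotypes were sorted for the tdTomato reporter after a dissociation in 25 µg/ml actinomycin D, which stops transcription. Each genotype is 1 library, so no comparison below has a replicate or a p-value, and every interval covers counting error only. The libraries shared 4 cell barcodes, and none of them belonged to an alpha cell.

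Alpha cells make glucagon, the hormone that raises blood glucose between meals. They cut it out of proglucagon with the protease prohormone convertase 2 (Pcsk2), store it in dense granules, and release it in response to low glucose, amino acids and adrenergic or vasopressin signals. In mice Pou3f4 (also called Brn4) is a transcription factor active in these cells, while Slc38a5 is the glutamine transporter linked to alpha cell growth when glucagon signalling is blocked.

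Because the Gcg transcript chose the cells, its promoter is shown. It spans chr2:62483604-62483903 on the minus strand of GRCm38.p6 and runs from 250 bases before the start of the gene to 50 after it, as given by RefSeq. Capitals mark matches, on either strand, to TATAAA, the TATA box, and TATTTAC, a sequence of the kind that forkhead factors such as Foxa2 bind.
Gcg promoter: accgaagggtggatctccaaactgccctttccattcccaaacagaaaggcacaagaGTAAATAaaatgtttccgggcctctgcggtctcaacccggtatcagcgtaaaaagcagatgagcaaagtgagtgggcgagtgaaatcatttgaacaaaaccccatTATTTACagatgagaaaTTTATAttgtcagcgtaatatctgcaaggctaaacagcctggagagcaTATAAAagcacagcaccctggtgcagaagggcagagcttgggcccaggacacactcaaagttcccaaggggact
TATAAA began 24 and 72 bases before the start and TATTTAC began 89 and 194 bases before it. TATAAA occurred in 13.6% and TATTTAC in 3.04% of all 32851 mouse promoters of this length, and TAATTA, a core of many homeodomain sites, occurred in 5.29% of them and not in this window. These letters are a description of the window, and binding was not measured.

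Depth supported measurement of many genes in single alpha cells. Alpha cells held a median of 20216 UMIs (6950 to 50440) and 4149 genes, with a median mitochondrial share of 1.36%. Outside 8 islet hormone genes (Gcg, Ins1, Ins2, Sst, Ppy, Pyy, Iapp and Ghrl) the median was 13622 UMIs, against 14310 in beta cells, 10066 in delta cells and 12845 in gamma cells. All levels below are therefore UMIs summed over the cells of a class per 1000000 UMIs outside those 8 genes, written CPM. They are not per length, so they compare 1 gene between classes and not genes with each other.

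The classes set beside alpha cells were chosen from their own hormones under the same filter and cell cycle limit. They were 828 beta cells (insulin at least 20% of UMIs), 209 delta cells (Sst at least 10%) and 145 gamma cells (Ppy at least 10%), each with the other 3 hormones below 5%. The 8 acinar markers summed to 141 CPM in alpha cells and 1867 CPM in the other 1942 control cells, 7 mesenchymal markers to 25.4 and 424 CPM, and 4 haemoglobin genes to 2.39 and 646 CPM. The acinar sums were 161 CPM in beta, 311 in delta and 203 in gamma cells. Acinar markers made up to 46.2% of the UMIs of a single cell among the other control cells. In beta, delta and gamma cells the mesenchymal sums were 2.65, 1.85 and 12.6 CPM, each below that of alpha cells, where Col1a2 gave 15.4 CPM. The haemoglobin sums there were 1387, 1.39 and 3.15 CPM, with up to 27.6% of the UMIs of a single beta cell. Other lists lay closer together, with 5 ductal markers at 301 and 585 CPM, 5 immune markers at 87.1 and 142 CPM and 4 Schwann cell markers at 18.1 and 20.9 CPM. Most of the ductal sum was Krt7, at 253 CPM in alpha cells and 342 CPM in the other control cells, and 91.3% of alpha cells and 97.9% of beta cells had a UMI of it. Endothelial Cdh5, Kdr and Emcn, the leukocyte gene Ptprc, Schwann cell Sox10 and mesenchymal Pdgfrb were at 0 in all 554 cells. Scrublet, a doublet caller, marked 7 of the 554 alpha cells (1.26%) and 63 of all 2496 control cells, and these cells were kept.

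Gcg made up 29.0% of all UMIs of the alpha cells, and 10.0% to 54.9% of a single cell with a median of 28.8%. These values chose the cells and are given as a description. The 3 cells just inside the limit had 10.01, 10.04 and 10.39%, and the 3 Gcg-richest cells just outside it had 9.974, 9.789 and 9.740%. The 19 cells at 10 to 12% and the 9 cells at 8 to 10% both held Irx2, at 245 and 176 CPM, and Slc7a2, at 653 and 490 CPM. Few cells lay near the limit, and those on its lower side still carried alpha transcripts. By contrast Gcg made up 0.0489% of beta, 0.0951% of delta and 0.215% of gamma cell UMIs, in classes whose rules set an upper limit on Gcg.

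**Figure D1:**
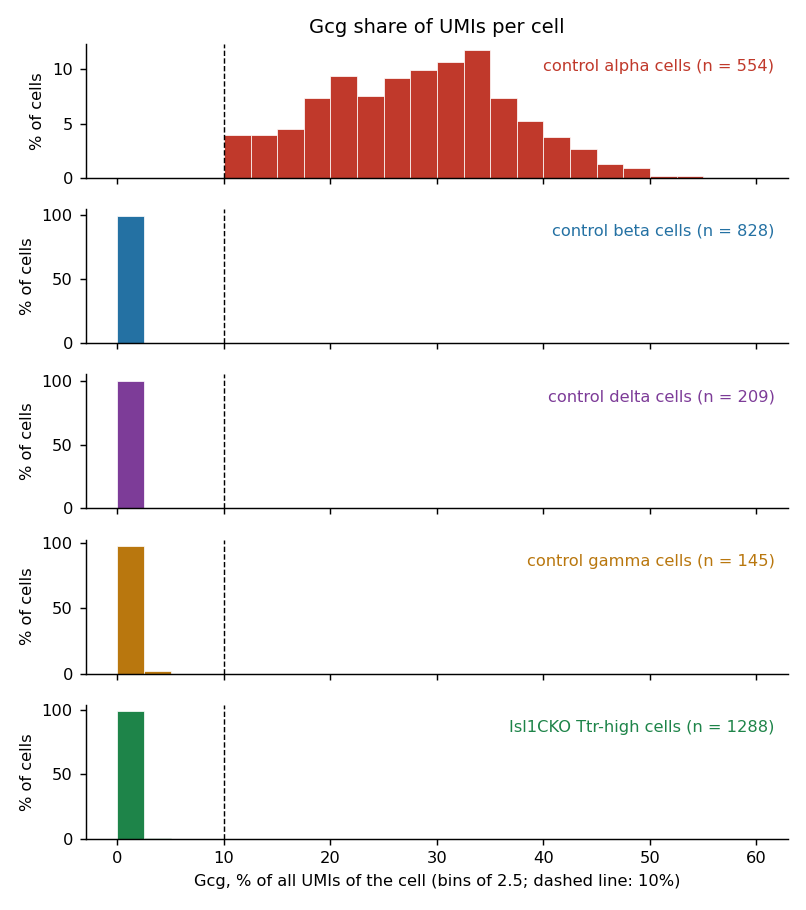
Histograms of the Gcg share of all UMIs of each cell (x axis, percent, bins of 2.5) against the percent of cells of the class (y axis), from control alpha cells at the top through control beta, delta and gamma cells to Isl1CKO Ttr-high cells at the bottom. Alpha cells spread from 10.0 to 54.9%, while the other 4 classes lie almost wholly in the lowest bin. The class rules set limits on Gcg, so the empty range between the panels comes from the selection. No peak below 10.0% could appear in the alpha panel. Control cells outside these classes are not drawn, among them 20 with Gcg at 7.5 to 10.0%.

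RNA free in the suspension was measured in near-empty control barcodes of 10 to 100 UMIs. If every insulin UMI in alpha cells came from there, such RNA would be 0.618% of their UMIs, which is an upper estimate. Ppy was measured at 0.628% of alpha cell UMIs, against 0.0183% on that estimate, and Ttr at 2.90%, against 0.0042%.

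Alpha identity genes were compared next. Their list was chosen with earlier results of these data known, so the counts describe the cells and do not test the label. Of 10 alpha identity genes, Gcg belonged to the rule, and the other 9 were all measured (at least 50 UMIs in the cells with the higher level) and all at least 2-fold higher in alpha cells than in the other 1942 control cells. Their median log2 ratio was 2.97, against -0.18 for all 12273 genes measured, of which 364 (2.97%) passed 2-fold upwards and 1622 (13.2%) downwards. All 9 stayed at least 2-fold higher when counted relative to the median gene or on the scale of all UMIs, hormones included. The scale matters for the full count: with all UMIs the median gene lay at 0.52 and the counts were 1603 higher and 1006 lower. Alpha cells also held fewer summed UMIs than the other control cells, so a gene needed a higher level to be called higher than lower.

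The identity list holds 3 transcription factors. Irx1 and Irx2, Iroquois homeobox genes, stood at 231 and 204 CPM in alpha cells. Irx1 was at 1.91 CPM in beta, 2.32 in delta and 6.30 in gamma cells, and Irx2 at 3.15, 6.95 and 22.6 CPM in those classes. Over the other control cells Irx1 was 14.2-fold higher (log2 3.82, interval 3.67 to 3.98). Pou3f4 had 81.5 CPM in alpha cells (interval 75.4 to 88.1), against 2.82 in beta, 3.71 in delta and 22.1 in gamma cells. After each cell was thinned to 3000 UMIs outside the hormones, a Pou3f4 UMI was found in 19.5% of alpha and 0.605% of beta cells, against 55.4% and 3.74% before thinning.

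Gc, the vitamin D binding protein gene, did not set alpha cells apart from gamma cells. It had 181 CPM in alpha cells, against 5.39 in beta, 54.7 in delta and 245 CPM in gamma cells. It was within 2-fold of gamma cells, and the other 8 identity genes were at least 2-fold higher in alpha cells than there, where 7.04% of all genes were.

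Of 28 endocrine transcription factors, 26 were measured against other control cells, with 1 higher and 9 lower, where 2.97% and 13.2% of all genes were. Etv1, an ETS factor, was the higher one, at 514 CPM in alpha cells and 17.3 CPM in beta cells, but it was also at 418 CPM in gamma cells. The lower ones included the beta cell factor Pdx1, at 18.4 CPM in alpha and 492 in beta cells, and the delta cell factor Hhex, at 7.55 CPM in alpha and 662 in delta cells. Pax6, a factor of all endocrine classes, had 321 CPM in alpha, 423 in beta, 386 in delta and 379 in gamma cells, within 2-fold of each. Isl1 itself stood at 680 CPM in alpha cells, against 266 in beta, 964 in delta and 710 in gamma cells, and was at least 2-fold higher than in beta cells. Between alpha and delta cells 3 of 23 measured factors were higher, Nkx2-2 among them, and 8 lower, with Insm1, Rfx3 and St18 among these, where 7.25% and 6.72% of all genes were.

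**Figure D2:**
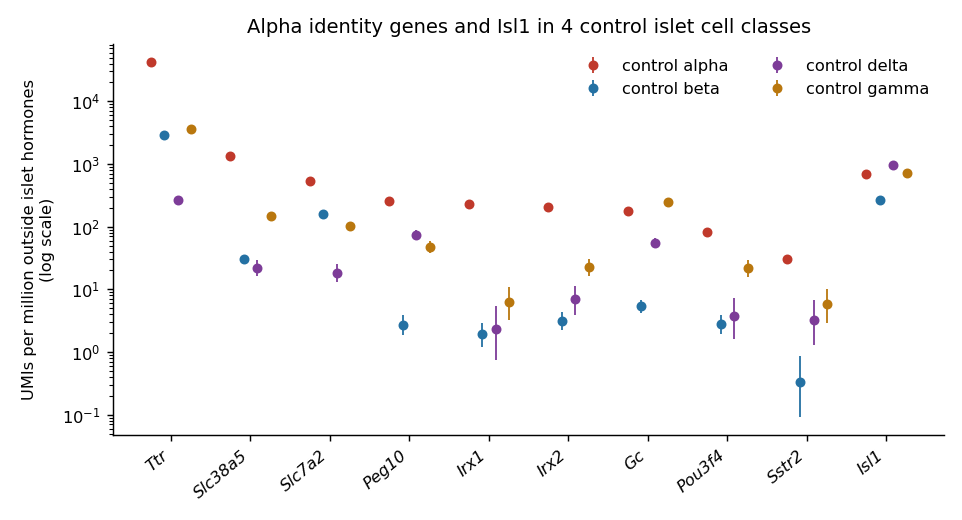
Level of 9 alpha identity genes and Isl1 (x axis) in control alpha, beta, delta and gamma cells, as CPM outside islet hormones (y axis, log scale), with exact Poisson 95% intervals that cover counting error only. Alpha cells are highest for every gene but Gc and Isl1, and for Gc gamma cells are close above them.

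Amino acid carriers were followed as a set of 15 genes, which includes the marker Slc7a2. Slc7a2, a carrier of arginine and lysine, had 534 CPM in alpha cells (interval 518 to 550), with 161 in beta, 18.5 in delta and 103 in gamma cells. Slc38a5 had 1361 CPM in alpha cells and 30.5, 22.2 and 150 CPM in beta, delta and gamma cells. Slc7a8, a carrier of large neutral amino acids, had 106 CPM in alpha cells and 64.9, 16.2 and 31.0 CPM in the same classes. Of the 10 transport genes measured against other control cells these 3 were at least 2-fold higher, and Slc38a1 was lower, beside 2.97% and 13.2% of all genes. The 2 sets share Slc7a2 and Slc38a5 with the identity genes above.

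Peg10, the fourth marker, is an imprinted gene derived from a retroelement. It had 255 CPM in alpha cells, against 2.74 in beta, 74.6 in delta and 47.3 in gamma cells. Only 41.2% of alpha cells had a Peg10 UMI, and the 5 highest cells held 17.6% of all of them. Its imprinted neighbour Sgce had 80.7 CPM in alpha cells and 1.91 CPM in beta cells, but 82.9 CPM in delta cells. Grb10, an imprinted adaptor of insulin and growth factor receptors, had 309 CPM in alpha, 35.2 in beta, 37.1 in delta and 102 CPM in gamma cells. Of 21 imprinted genes against other control cells 5 were higher (Peg10, Sgce, Gnas, Grb10 and Asb4) and 5 lower (Dlk1, Igf2, H19, Nnat and Plagl1), beside 2.97% and 13.2% of all genes. On the scale of all UMIs 9 were higher and 4 lower, where 1603 and 1006 of 11415 genes were.

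Of the 2 prohormone convertases, Pcsk2 had 8457 CPM in alpha cells, against 5140 in beta, 4955 in delta and 5267 in gamma cells, within 2-fold of each. Pcsk1, whose product makes GLP-1 from the same precursor and processes proinsulin, had 6.42 CPM in alpha cells, against 716 in beta, 85.7 in delta and 187 in gamma cells. The alpha cell level was 112-fold lower than that of beta cells, and 6.50% of alpha and 99.2% of beta cells had a Pcsk1 UMI. Among granule proteins, Vgf, a precursor of secreted peptides, was higher, at 130 CPM in alpha cells and 11.0 in beta cells, with 1.39 in delta and 2.10 in gamma cells. Chgb (2174 CPM in alpha and 5033 in beta cells) and Scg2 (1409 and 4351 CPM) were lower. In all, 1 of 17 processing and granule genes was higher than in other control cells and 3 were lower. That is near the 2.97% and 13.2% of all genes, so on this scale these counts do not set the list apart. On the scale of all UMIs they were 7 and 3, where 1603 and 1006 of 11415 genes were.

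Receptors split in both directions, with 7 of 24 higher and 10 lower than in other control cells, where 2.97% and 13.2% of all genes were. On the scale of all UMIs 7 were higher and 7 lower, where 1603 and 1006 of 11415 genes were. Avpr1b, the vasopressin receptor of pituitary and islet, had 13.3 CPM in alpha and 0.249 CPM in beta cells. Oxtr, the oxytocin receptor, had 24.4 CPM in alpha, 0.663 in beta, 18.5 in delta and 4.20 CPM in gamma cells. Gria2, an AMPA-type glutamate receptor subunit, had 396 CPM in alpha and 18.2 CPM in beta cells, and 176 and 190 CPM in delta and gamma cells. Sstr2, the somatostatin receptor through which delta cells restrain alpha cells, had 30.8 CPM in alpha cells, with 0.332 in beta, 3.24 in delta and 5.78 in gamma cells. Avpr1b, Gria2 and Sstr2 were at least 2-fold higher in alpha cells than in each of the 3 classes, and Oxtr was within 2-fold of delta cells.

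Receptors of the glucagon family differed in level. Gipr, the GIP receptor, had 31.6 CPM in alpha cells, with a UMI in 32.9% of them, against 79.8 in beta, 44.0 in delta and 37.8 in gamma cells. Glp1r, the GLP-1 receptor, had 0 UMIs in the 554 alpha cells, which allows up to 3 UMIs, and 241 UMIs in beta cells, which puts alpha cells at least 52.9-fold lower against that floor over the class. Gcgr, the glucagon receptor, had 2 UMIs or 0.252 CPM in alpha cells and 18.2 CPM in beta cells (log2 ratio -6.17, interval -9.23 to -4.30). Adra2a, an adrenergic receptor, had 1.13 CPM in alpha and 90.1 CPM in beta cells. In the near-empty barcodes Glp1r, Gcgr and Adra2a had 1.94, 5.83 and 42.8 CPM.

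Slc2a2, the glucose transporter GLUT2, had 4.66 CPM in alpha and 1252 CPM in beta cells, and G6pc2, a glucose-6-phosphatase subunit, had 63.0 and 969 CPM. Ldha, the lactate dehydrogenase gene that beta cells silence, was at 2 UMIs in alpha and 6 UMIs in beta cells. Of 21 glucose handling genes measured against other control cells, 0 were higher and 6 were lower, beside 2.97% and 13.2% of all genes. On the scale of all UMIs 1 was higher and 4 were lower, where 1603 and 1006 of 11415 genes were.

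Of 18 genes of the unfolded protein response, which include chaperones of the endoplasmic reticulum, 10 were at least 2-fold lower in alpha than in beta cells and 0 higher, with a median log2 ratio of -1.26 against -0.10 for all genes, of which 9.83% were lower. Hspa5 (BiP) had 1088 CPM in alpha cells, against 2651 in beta, 1428 in delta and 1337 in gamma cells. Sdf2l1 had 62.2 CPM in alpha cells and 559 CPM in beta cells. Relative to the median gene 10 of the 18 were again lower than in beta cells and 0 higher. On the scale of all UMIs only 1 of the 18 was lower and 1 was higher. On that scale the median gene lay at a log2 ratio of 1.08, with 5856 genes higher and 356 lower. The list thus stayed below the typical gene, while the count of lower genes depended on the scale. Of 6 immediate early genes 5 were higher than in beta cells, where 7.44% of all genes were, with Fos at 30.6 CPM in alpha and 6.14 CPM in beta cells, and 0 of 6 differed by 2-fold from delta or gamma cells, where Fos had 29.2 and 26.3 CPM.

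Across the transcriptome, 169 of 10920 genes (1.55%) were at least 2-fold higher in alpha cells than in each of beta, delta and gamma cells, and 63 (0.577%) were lower than in each. Beside Irx1, Irx2, Ttr and Slc38a5, the genes ranked highest by interval included Adcy1, an adenylate cyclase, at 46.4 CPM in alpha cells and 0.995, 1.39 and 0.525 CPM in beta, delta and gamma cells. Wnk3, a kinase that controls chloride cotransporters, had 492 CPM in alpha cells and 49.3, 11.6 and 50.4 CPM. Ptprd, a receptor tyrosine phosphatase, had 169 CPM in alpha cells and 6.05, 6.95 and 28.9 CPM. Fbp1, the gluconeogenic fructose bisphosphatase, had 138 CPM in alpha cells and 9.29, 13.9 and 11.6 CPM. Each of the 4 was at least 5-fold higher in alpha cells than in any of the 3 classes.

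Other genes that ranked high against all control cells were also present in gamma cells. Pdk4, the kinase that inhibits pyruvate dehydrogenase, had 115 CPM in alpha and 43.6 CPM in gamma cells, and 0.332 and 0.463 CPM in beta and delta cells, and it belongs to the 169. Edn3, endothelin 3, had 152 CPM in alpha cells, 91.4 in gamma cells and 0.746 and 2.32 CPM in beta and delta cells, so it was within 2-fold of gamma cells. Alpha cells differed least from gamma cells by the count of lower genes, with 580 of 8242 genes (7.04%) higher and 234 (2.84%) lower. Gamma cells held fewer summed UMIs than alpha cells, so a gene needed a higher level to be called lower in alpha cells than higher. Against beta cells 7.44% were higher and 9.83% lower, and against delta cells 7.25% and 6.72%.

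Among the named genes outside the hormones, Ttr had the highest ratio of variance to mean over alpha cells. This ratio tends to grow with the mean. Ttr encodes transthyretin, the carrier of thyroid hormone and of retinol binding protein. Each cell was thinned to 3000 UMIs outside the hormones, and 899 genes had a mean of at least 0.5 UMIs. Their median variance to mean ratio was 1.12, where pure sampling gives about 1, and 39 genes reached 2. Ttr had a ratio of 88.6, a median of 91.0 UMIs and a range of 1 to 580. As a share of all UMIs it ran from 0.0457% to 10.7% with a median of 2.09%, and 91 cells reached 5%.

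Slc38a5 varied as well, with a ratio of 10.4, 0 thinned UMIs in 166 cells and 40 in the highest. Chgb owed its ratio of 22.4 to few cells: without the 5 highest it was 3.23, and those 5 held 23.5% of its UMIs, 2021 of them in 1 cell. Ttr without its 5 highest cells kept a ratio of 80.2. Peg10 had a ratio of 4.82 and no thinned UMI in 412 cells. Malat1, a nuclear noncoding RNA, had a ratio of 46.1.

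Cells with more Gcg tended to hold more Ttr. The Spearman correlation of the thinned Ttr count with the Gcg share was 0.39 over 554 cells of 1 library, which share batch and background. In the quartile of cells with the most Gcg (34.4 to 54.9%) Ttr was at 65140 CPM, against 26784 CPM in the quartile with the least (10.0 to 21.4%). The median mitochondrial shares of these quartiles were 1.09 and 1.66%, and the median UMIs outside hormones 13590 and 13588. Their median total UMIs, Gcg included, were 23730 and 17141. Over the 554 cells total UMIs had a Spearman correlation of 0.37 with the Gcg share and 0.35 with the thinned Ttr count. The parts of mitochondrial share and of total UMIs in the result were not tested. Between the same quartiles Peg10 was at 160 and 410 CPM, Vgf at 189 and 66.4 CPM, Irx1 at 277 and 179 CPM and Irx2 at 195 and 199 CPM. Both Iroquois genes differed by less than 2-fold, and over all 6107 genes measured 10 were at least 2-fold higher (0.164%) and 85 lower (1.39%) in the Gcg-rich quartile.

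**Figure D3:**
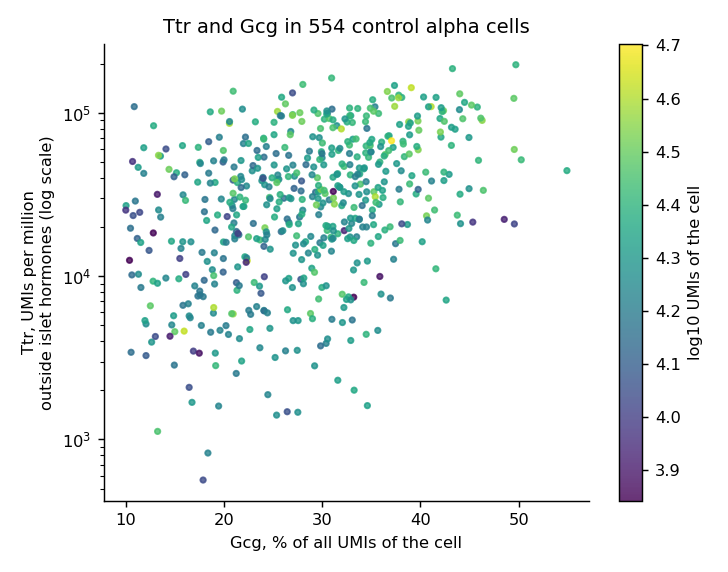
Ttr level (y axis, CPM outside islet hormones, log scale) against the Gcg share of all UMIs (x axis, percent) in each of 554 control alpha cells, coloured by log10 of the UMIs of the cell. Ttr spans more than 2 orders of magnitude and tends to be higher in cells with more Gcg (Spearman correlation 0.39).

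A part of the alpha cells also held pancreatic polypeptide or peptide YY, hormones of gamma cells and of early endocrine cells. Ppy reached 1% of UMIs in 62 cells (11.2%, interval 8.69 to 14.1%) and 5% in 17, with a median of 0.0809% over all alpha cells. Pyy reached 1% in 189 cells (34.1%, interval 30.2 to 38.2%) and 5% in 38, with a median of 0.529%. Iapp reached 1% in 49 cells and Ghrl, the ghrelin gene, in 16. Among beta cells, which also lie in the same suspension, Ppy reached 1% in 28 cells (3.38%) and Pyy in 117 (14.1%) at a median of 48460 UMIs, against 20216 in alpha cells. The beta rule left out cells with Ppy at 5% or more, while the alpha rule set no Ppy limit. Ins1 and Ins2 also took 22.0% and 43.6% of beta cell UMIs. The alpha and beta shares are therefore not on equal terms. Scrublet marked 5 of the 62 Ppy-positive alpha cells (8.06%) and 7 of the 189 Pyy-positive ones, so all 7 alpha doublet calls fell in the second set.

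**Figure D4:**
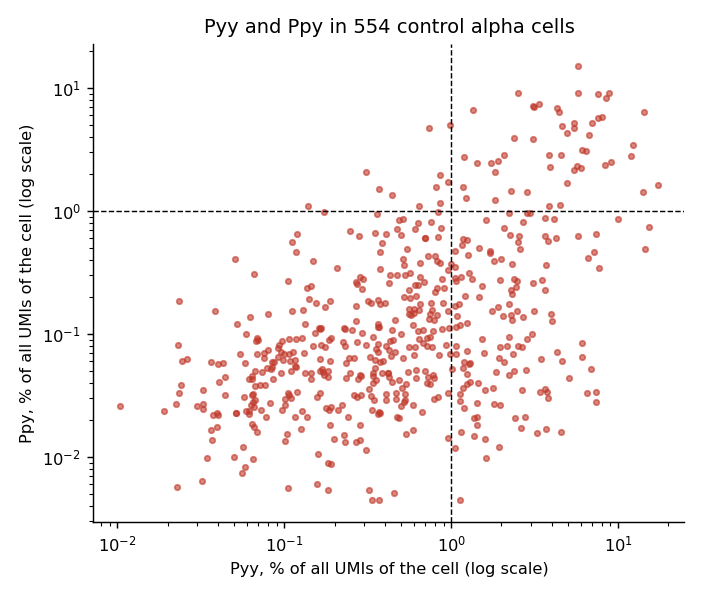
Ppy share (y axis) against Pyy share (x axis) of all UMIs in each of 554 control alpha cells, both in percent on log scales, with dashed lines at 1%. Cells spread continuously across both lines, 62 above the Ppy line and 189 beyond the Pyy line.

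Between the 62 Ppy-positive alpha cells and the other 492, 11 of 6286 genes were at least 2-fold higher (0.175%) and 234 lower (3.72%). The 62 cells held fewer summed UMIs than the 492, so a gene needed a higher level to be called higher than lower. The counts in the 2 directions are therefore not on equal terms. The genes named here were chosen after their values were seen. Fam159b had 153 CPM in the 62 cells and 6.26 CPM in the rest, Tspan8, a tetraspanin, 402 and 114 CPM, and Cd24a 69.0 and 8.67 CPM. Gamma cells had 174, 1555 and 112 CPM of these genes, and delta cells 1468, 765 and 1167 CPM. Ttr was at 16526 CPM in the Ppy-positive cells and 45997 CPM in the rest, and Slc38a5 at 586 and 1462 CPM. The 28 alpha cells with a Fam159b UMI held it unevenly, 54.9% in the 5 highest.

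Cells of both sexes were present. By Xist or Y-linked transcripts alone, 121 alpha cells were Xist-only and 379 Y-only, 24.2% Xist-only of those typed, beside 23.5% in beta, 13.5% in delta and 19.1% in gamma cells. The median Gcg share was 29.7% in Xist-only and 27.9% in Y-only cells. Of 7616 genes compared, 5 (0.0657%) were at least 2-fold higher in Xist-only cells and 83 (1.09%) lower. Xist-only cells held fewer summed UMIs than Y-only cells, so a gene needed a higher level to be called higher than lower. The counts of higher and lower genes are therefore not on equal terms. Cartpt, the precursor of CART peptides, was 1 of the 5 higher ones, at 60.1 CPM in Xist-only and 5.38 CPM in Y-only cells, but it rested on 40 alpha cells with 69.2% of its UMIs in 5 of them.

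Cells of this kind were nearly missing from the Isl1CKO library. Under the same rule 2 of 2951 Isl1CKO cells were alpha cells (0.0678%, interval 0.00821 to 0.245%), against 554 of 2496 control cells (22.2%). Lowering the Gcg limit to 5% left the 2, and lowering it to 1% gave 62. The 2 cells had Gcg at 14.2 and 20.2% and Ttr at 9.97 and 7.56% of UMIs. The first had 1 Irx1 UMI and the second had 6, and neither had a Pou3f4 UMI. Isl1 transcripts did not fall away with the label. They were at 510 CPM in the Isl1CKO cells compared next and at 680 CPM in control alpha cells, and since the deleted exons are not given in the sources used here, 3′ tags do not check the deletion.

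The Isl1CKO library held 1288 cells (43.6%) rich in Ttr but not in Gcg, with Ttr at least 5%, Gcg under 10%, insulin and Sst under 5% and the same cell cycle limit. Only 11 control cells (0.441%) met that rule. They are set beside the control alpha cells because Ttr is an alpha identity gene, and the files do not show that they descend from alpha cells. Gcg made up 0.189% of UMIs in the Isl1CKO Ttr-high cells and 29.0% in control alpha cells, a difference that the rule shaped. Other hormones that the rule did not use were lower too, Ppy at 0.00174% and 0.628% and Pyy at 0.0483% and 1.47%, while Ghrl stood at 0.104% and 0.131%.

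These 2 classes differ in library, depth and sex makeup as well as genotype. Median UMIs were 28566 in Isl1CKO Ttr-high and 20216 in control alpha cells, and Xist-only cells were 41.4% and 24.2% of those typed. Of 10931 genes 606 (5.54%) were at least 2-fold higher in Isl1CKO Ttr-high cells and 1806 (16.5%) lower, with the median gene at -0.37 on the log2 scale. Relative to the median gene the counts were 1044 (9.55%) and 801 (7.33%), and on the scale of all UMIs, where the median gene lay at 0.19, they were 1352 and 582. So the balance of higher and lower genes depended on the scale, and single genes are read against these medians. In Xist-only cells of both classes 921 genes were lower, and with every cell thinned to 3000 UMIs 279 were higher and 772 lower. Both settings summed fewer UMIs, so these counts are not on equal terms with those above. Against the 91 control alpha cells with Ttr at 5% or more, a choice made after seeing the data, 853 of 7401 measured genes were higher and 323 lower.

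The alpha identity genes did not move as a block. Of 8 measured outside the rules, 3 were lower in Isl1CKO Ttr-high cells, 2 were higher and 3 were within 2-fold, under all 3 scales. Pou3f4 had 3.73 CPM in Isl1CKO Ttr-high and 81.5 CPM in control alpha cells, 21.8-fold lower (log2 -4.45, interval -4.72 to -4.18). Slc7a2 had 97.9 and 534 CPM and Peg10 46.8 and 255 CPM. After thinning, a Pou3f4 UMI was found in 1.24% of Isl1CKO Ttr-high and 19.5% of control alpha cells.

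Both Iroquois genes stood at like levels, Irx1 at 261 CPM in Isl1CKO Ttr-high and 231 CPM in control alpha cells and Irx2 at 203 and 204 CPM. Sstr2 was at 29.1 and 30.8 CPM. The log2 ratios were 0.18 (interval 0.10 to 0.25), -0.01 (-0.09 to 0.07) and -0.09 (-0.29 to 0.12), and over the alternative settings Irx1 ran from 0.07 to 0.72, Irx2 from -0.07 to 0.54 and Sstr2 from -0.35 to 1.13. Slc38a5 was higher, at 12436 and 1361 CPM. Gc was also higher, at 416 and 181 CPM, but its log2 ratio of 1.20 became 0.13 against those 91 Ttr-rich control alpha cells.

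**Figure D5:**
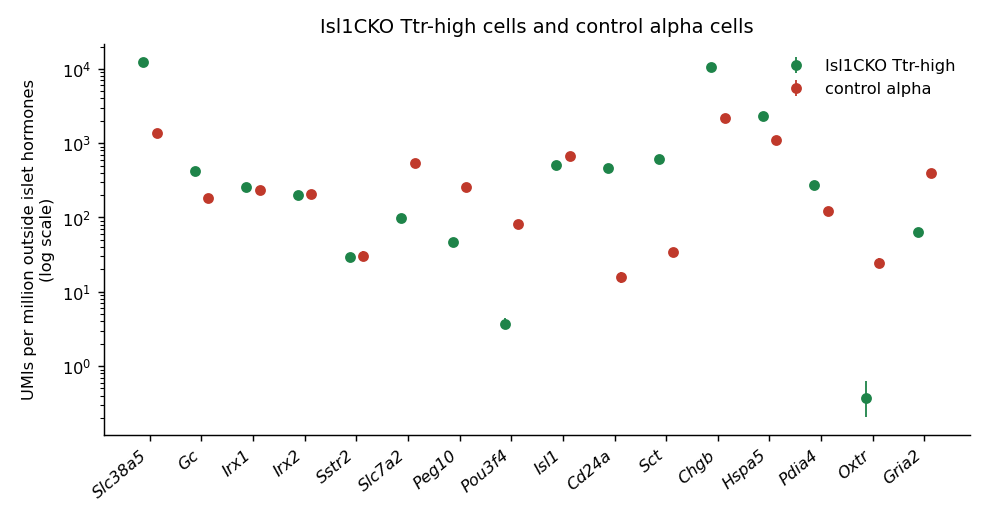
Level of 8 alpha identity genes, Isl1 and 7 other named genes (x axis) in Isl1CKO Ttr-high cells and control alpha cells, as CPM outside islet hormones (y axis, log scale), with exact Poisson 95% intervals that cover counting error only. The intervals of Irx2 and Sstr2 overlap between the classes and those of Irx1 lie close together, while Pou3f4 and Oxtr are far lower and Slc38a5, Cd24a and Sct far higher in Isl1CKO Ttr-high cells.

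Of 19 hormone and nutrient receptors 10 were lower in Isl1CKO Ttr-high than in control alpha cells and 0 higher, where 16.5% and 5.54% of all genes were. On the scale of all UMIs 9 were lower and 1 higher, where 582 and 1352 of 11494 genes were. Oxtr had 0.373 CPM in Isl1CKO Ttr-high and 24.4 CPM in control alpha cells, Gpr119, a lipid receptor, 4.99 and 66.3 CPM, and Gria2 64.8 and 396 CPM. Of 16 exocytosis genes 2 were lower and 1 higher, near the 16.5% and 5.54% of all genes, so these counts do not set the list apart. Of 17 processing and granule genes 5 were lower and 4 higher, beside the same shares. On the scale of all UMIs 2 of the 17 were lower and 6 higher, where 582 and 1352 of 11494 genes were. Abcc8, the regulatory subunit of the ATP-sensitive potassium channel, had 58.6 and 302 CPM. Scgn, a calcium sensor of secretion, had 90.5 and 554 CPM. Robo2, an axon guidance receptor that shapes islets, had 8.10 and 140 CPM. Both chromogranin genes were higher, Chgb at 10695 and 2174 CPM and Chga at 30573 and 9947 CPM.

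Of 19 genes of the unfolded protein response 8 were higher in the Isl1CKO Ttr-high cells, with a median log2 ratio of 0.84, against 5.54% of all genes. Hspa5 had 2315 CPM in Isl1CKO Ttr-high and 1088 CPM in control alpha cells, Sdf2l1 354 and 62.2 CPM and Pdia4 275 and 123 CPM. Ddit3 was the 1 lower gene of the list, and relative to the median gene 11 were higher and 0 lower. Of 7 immediate early genes 5 were lower and Nr4a1 was higher, beside 16.5% and 5.54% of all genes, with Fos at 2.16 and 30.6 CPM. Of 19 imprinted genes 8 were lower and 0 higher, beside the same shares, with Grb10 at 324 and 309 CPM. Relative to the median gene 7 imprinted genes were lower and 2 higher, where 7.33% and 9.55% of all genes were, and 4 immediate early genes were lower and 1 higher.

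The genes ranked highest and lowest by interval lay outside most lists. Cd24a, a surface glycoprotein of endocrine progenitors, had 469 CPM in Isl1CKO Ttr-high and 15.6 CPM in control alpha cells, and Ttyh1, an anion channel, 470 and 16.9 CPM. Sct, the secretin gene of the gut and early islet, had 619 and 34.5 CPM, and Cck, cholecystokinin, 68.1 and 4.53 CPM. Control delta cells had 1167 CPM of Cd24a, so this gene was not limited to the Isl1CKO library. Among the lowest, Pappa2, a protease of growth factor binding proteins, had 7.78 CPM in Isl1CKO Ttr-high and 297 CPM in control alpha cells, and Klhl13, a ubiquitin ligase adaptor, 1.76 and 74.6 CPM. Slitrk6, a neuronal membrane protein, had 1.36 and 54.2 CPM.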

How the data were processed

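The authors deposited whole-number UMI counts per gene and barcode for each library, not normalized, as 10x matrices. The control matrix listed 6794880 barcodes and 89375215 UMIs, and the Isl1CKO matrix 3020 barcodes, none below 4882 UMIs, and 78068592 UMIs, so the second had been filtered before deposit. STARsolo, STAR 2.7.3a, Seurat 4.3.0.1 and GRCm38.p6 are named in the submitters' processing notes, with no role given. Libraries were made with a 10x 3′ kit, per the labels' protocols.

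The 6825-UMI filter and hormone limits were applied to both libraries, and cells were summed per class (Python 3.11.15, numpy 2.4.6, scipy 1.17.1). Ratios carry exact conditional binomial, levels exact Poisson and shares Clopper-Pearson 95% intervals. A count of 0 was set to a floor of 3 UMIs over the class. Genes needed 50 UMIs in the class with the higher level and were called at 2-fold. A class with fewer summed UMIs therefore needed a higher level for a call. The code recovered known folds in simulated counts that held sampling error only. They had no spread between cells, so this checked the calculation alone. Doublets were called with Scrublet in scanpy 1.11.5 and kept. The Isl1CKO calls, 8 of 2951 cells (0.271%), lay far below the expected 2.36%, so doublets may remain there. Gene names came from the files. Neurod1, Pam, Snrpn and Cela2a share exons with another gene, so their counts are uncertain; they stayed in the list counts and sums, and none is given a value of its own.

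Named genes were list members, or ranked first by the interval bound nearest to no difference, by variance to mean or by correlation with Gcg. The members and lists were chosen with earlier results of these data known. Alternatives covered filters, hormone limits, scaling, thinning, doublets, background and sex. A few genes are not reported here.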

Additional observations from a re-analysis of the deposited data

Results flagged for a closer look

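Some barcodes below the UMI limit, which no comparison used, also met the alpha hormone limits. Of 872 control barcodes with 1000 UMIs or more but fewer than the minimum for cells, 46 met the hormone and cell cycle limits of the alpha rule (5.28%, exact 95% binomial interval 3.89 to 6.97%). Their median was 3310 UMIs, with Gcg at a median of 15.5% of UMIs and a median mitochondrial share of 11.4%. In 31 of them the mitochondrial share was 15% or less.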

How the results depend on the processing

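No paired analysis was possible because each genotype is 1 library. Single genes were followed across the settings only for the alpha identity list, and none of those called at 2-fold changed direction. Of the uncalled identity genes, Irx2 and Sstr2 changed sign between Isl1CKO Ttr-high and control alpha cells, and of the single-gene values 116 moved outside their interval and 172 did not. Alpha cells were 17.8% of control cells with Gcg at 20% or more, and 22.2 to 23.3% under the 5 other filters. On the scale of all UMIs, 1603 genes were higher and 1006 lower in alpha than in other control cells, 335 were higher than in each of 3 classes, and 1352 were higher and 582 lower in Isl1CKO Ttr-high than in control alpha cells. Relative to the median gene the last pair was 1044 and 801. Thinning to 3000 UMIs gave 164, 974, 79, 279 and 772 in the same order, a limit of 200 UMIs per gene 160, 898, 82, 347 and 792, both with fewer genes measured. A limit of 20 UMIs gave 615 higher than in other control cells and 300 higher than in each class. Xist-only cells, with fewer summed UMIs, gave 208 higher and 849 lower, 95 higher than in each class, and 921 lower in Isl1CKO Ttr-high cells. Against control alpha cells with Ttr at 5% or more, a setting added after seeing the data, 323 were lower, and the cause was not tested. With Gcg at 1% or more, 62 Isl1CKO cells met the rule. The count of variable genes was 32 to 38 under 5 added settings. Subtracting the near-empty profile could not be run for the Isl1CKO library, which holds no near-empty barcodes here. Depth limits genes below 50 UMIs, about 6 CPM in alpha cells.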
